A study of Mus musculus with 15 samples.

Results

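Mice given Nao Yi Kang decoction (NYKD) after intracerebral haemorrhage (ICH) were compared with mice that had the haemorrhage and no decoction, on day 3. The comparison rests on 10 of the 15 libraries of the series, the 5 labelled NYKD and the 5 labelled ICH, and covers 18052 expressed genes of the 54532 in the count table. All mice were labelled wild type. NYKD mice had ICH and received the decoction, dissolved in distilled water, by gavage each day for 3 days at a dose of 5.79 g/kg. ICH mice had the haemorrhage and received distilled water. A sham group of 5 mice, also gavaged with distilled water, entered the fit and is given beside the results as a background. The labels used here state neither strain nor age nor the way the haemorrhage was made. RNA came from the basal ganglia of the injured side after saline perfusion, 1 library per mouse, and mRNA was selected with poly-T beads. Each library is bulk tissue, so fewer cells of a type and less RNA per cell cannot be told apart. Libraries held 16010857 to 17120602 counts in NYKD, 13539203 to 16194103 in ICH and 15432279 to 19909140 in sham mice.

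Blood in the basal ganglia kills neurons, draws in neutrophils and monocytes, and turns astrocytes and microglia reactive, while hemoglobin breakdown loads the tissue with heme and iron.  SR proteins are splicing factors with serine- and arginine-rich tails, and CDC-like kinases (CLKs) phosphorylate those tails and so set how much of each factor is active. Long non-coding RNAs are transcribed and often spliced like mRNAs but carry no long reading frame, and many of them stay in the nucleus.

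The striatal markers were present in every library. The mean level of 16 striatal projection neuron genes ran from 3.90 to 7.32 log2 CPM (counts scaled to a common library size) in NYKD, 5.79 to 8.18 in ICH and 6.16 to 8.77 in sham mice. A pair of libraries stood apart. ICH replicate 4 had the smallest total and the highest neutrophil genes. Their mean over 10 genes was 2.5 to 3.01 log2 CPM in NYKD mice, 6.42 in ICH replicate 4, 1.71 to 2.34 in the other ICH mice and -0.10 to 0.63 in sham mice. Sham replicate 5 had the largest total and the fewest detected genes, 22527 against 24924 to 25695 in the other sham mice. It does not enter the NYKD and ICH means, but it enters the estimate of spread, and its levels resembled those of NYKD mice for the genes lowered in NYKD, as given below. The results are therefore also given without ICH replicate 4, and without both of these libraries.

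With all libraries, 625 genes changed between NYKD and ICH (edgeR quasi-likelihood test, adjusted p under 0.05), which is 3.46% of the genes tested. Coding genes went both ways: of 491 changed ones (3.25% of coding genes), 207 rose (1.37%) and 284 fell (1.88%). Non-coding genes went almost entirely one way: of 132 changed ones (4.46%), 6 rose (0.203%) and 126 fell (4.26%). Another 2 genes without annotation rose. At an unadjusted p under 0.05, 9.9% of all genes were higher in NYKD and 13.3% lower, 23.2% together. Among coding genes 11.4% were higher and 10.8% lower at that level, and among non-coding genes 2.27% were higher and 25.9% lower. Of the 625 changed genes, 284 differed by at least 2-fold, and the libraries of NYKD and ICH did not overlap for 521 of them, against 7.79% of all genes tested. The smallest adjusted p was 0.0190 and the largest among the calls 0.0498, so no call was far below the threshold. The count rested on single libraries of both groups: no gene was called when NYKD replicate 1, 3 or 5 or ICH replicate 5 was left out, with 3866, 3607, 3541 and 3499 genes at an unadjusted p under 0.05, and 9 were called without NYKD replicate 4.

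Without ICH replicate 4, the same model called 1 gene, 0.00546% of 18307 tested. Another 695 had an adjusted p from 0.0602 to under 0.1. All 625 genes kept their direction and an unadjusted p under 0.05. They were chosen on the same comparison with the other libraries shared, so this is no independent support. Median log2 fold changes without and with the library were 0.69 and 0.74 for raised coding genes. They were -0.83 and -0.89 for lowered coding genes, and -1.60 and -1.71 for lowered non-coding genes. When sham replicate 5 was left out as well, 961 genes were called, 5.27% of those tested, and 553 of the 625 were among them. A fit of only the 9 remaining NYKD and ICH libraries called 415 genes (2.36%), 306 of them among the 625. With sham replicate 5 kept and a per-library offset for length and GC content, 129 genes were called without ICH replicate 4. Leaving out sham replicate 5 alone gave 1494 calls (8.11%), with all 625 among them. In the fit without both libraries, 230 coding genes rose and 491 fell, and 11 non-coding genes rose and 227 fell.

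**Figure D1:**
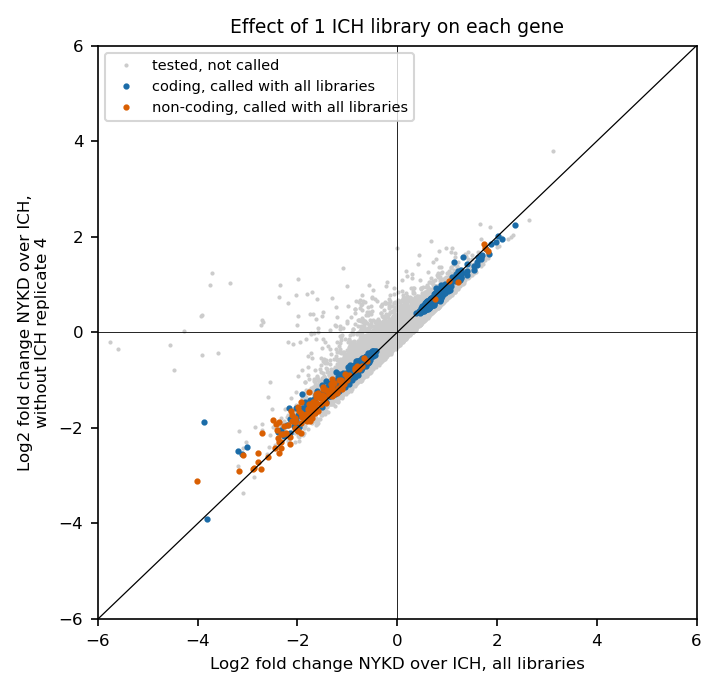
Log2 fold change of each tested gene, NYKD over ICH, with all libraries (x axis) and without ICH replicate 4 (y axis). Grey points are genes that were not called, blue and orange points the coding and non-coding genes called with all libraries, and the diagonal marks equal values. The called genes lie along the diagonal in the same quadrants on both axes, and the points far above it on the left are uncalled genes, apart from a few called ones such as Wnt10b. The 1 gene beyond 6 on the log2 scale is not drawn.

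Transcripts of non-coding genes took a smaller share of the library in NYKD mice. The share was 2.5%, 2.67%, 2.06%, 2.28% and 1.99% of counts in NYKD replicates 1 to 5, against 3.24%, 3.36%, 3.54%, 3.23% and 3.30% in ICH replicates 1 to 5. Every NYKD library lay below every ICH library. The means were 2.30 ± 0.284% in NYKD and 3.34 ± 0.128% in ICH (SD, n = 5 each), a difference of -1.03 percentage points with a two-sided exact permutation p of 0.00794, the smallest that 5 against 5 allows. Adjusted over the 8 library measures compared, p was 0.0635, which does not pass 0.05. Without ICH replicate 4 the exact p was 0.0159, again the smallest possible, and 0.0635 after adjustment. Sham mice ran from 2.59% to 3.37%, and the lowest of them was sham replicate 5, inside the NYKD range. The share did not rest on the few most abundant transcripts: with the 10 most counted non-coding genes left out, it was 1.08% to 1.31% in NYKD and 1.5% to 1.68% in ICH.

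**Figure D2:**
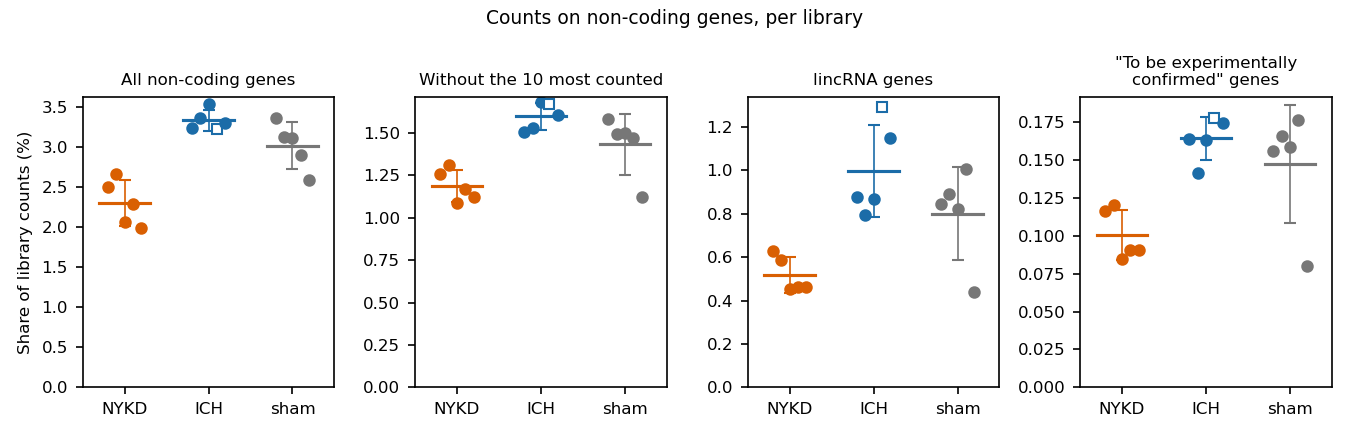
Share of library counts on non-coding genes (y axis, percent, from 0) in NYKD, ICH and sham mice, for all non-coding genes, without the 10 most counted ones, for lincRNA genes and for TEC loci, which GENCODE lists as awaiting experimental proof. Points are libraries, the open square is ICH replicate 4, lines and bars are the mean and SD. NYKD libraries lie below all ICH libraries in each panel, and the lowest sham point is sham replicate 5.

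The size of the difference varied between classes of non-coding genes. Counts on lincRNA genes (long intergenic non-coding RNA) were 0.452% to 0.627% of the library in NYKD and 0.794% to 1.29% in ICH, and those on antisense genes 0.134% to 0.163% in NYKD and 0.184% to 0.231% in ICH. The median log2 fold change was -0.43 over the 2957 tested non-coding genes and 0.03 over the 15087 coding genes. It was -0.50 for 603 lincRNA genes, -0.51 for 314 processed transcripts, -0.57 for 598 antisense genes, -0.77 for 503 TEC loci, which GENCODE lists as awaiting experimental proof, and -0.91 for 57 sense intronic genes. Pseudogenes, copies of coding genes that have lost their reading frame, had a median of -0.08 over 728 genes. Without ICH replicate 4 each of these medians kept its sign, with values of -0.41, -0.46, -0.51, -0.73, -0.80 and -0.10 in the order just given. At an unadjusted p under 0.05, 26 of the 57 sense intronic genes were lower in NYKD and 1 was higher. The share of counts on all sense intronic genes overlapped between groups all the same, with 0.0334% to 0.0466% in NYKD and 0.0330% to 0.0421% in ICH.

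Position relative to coding genes sorted the non-coding genes further. Leaving pseudogenes out, 333 tested non-coding genes lay within the introns of a coding gene on its own strand. Their median log2 fold change was -0.91 (-0.87 without ICH replicate 4), and 41.1% were lower in NYKD at an unadjusted p under 0.05. For 88 on the same strand with overlapping exons the median was -0.70 (-0.60 without ICH replicate 4), with 40.9% lower. For 229 that lay within introns on the opposite strand the median was -0.65, with 25.8% lower. For 712 that crossed exons on the opposite strand it was -0.54, with 28.1% lower. For 867 that overlapped no coding gene it was -0.48, with 29.5% lower. Genes of 1 exon had a median of -0.70 over 772, and genes of 2 or more exons -0.52 over 1457. The labels do not say whether counting used strand, so reads from a non-coding gene and from a coding gene over it cannot be told apart where they overlap. Of the 126 lowered non-coding genes, 74 overlapped a coding gene, and the first host was tested for 70 of them. The host fell for 6 of these (8.57%, against 1.88% of all tested coding genes) and rose for 1, and the median over hosts was -0.07. These differences between classes are descriptions and carry no test.

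**Figure D3:**
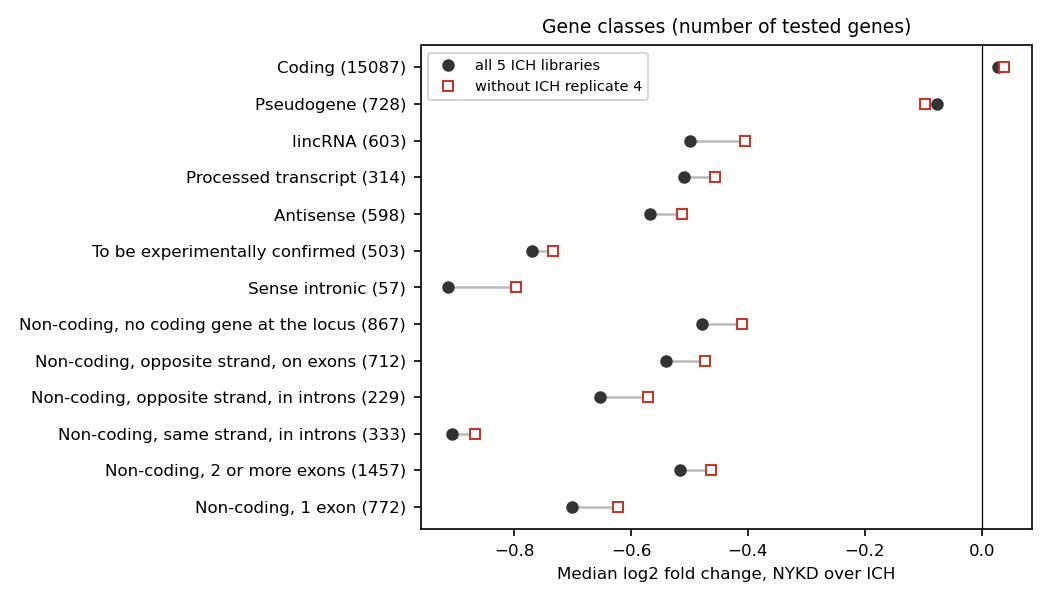
Median log2 fold change, NYKD over ICH (x axis), by gene class and by position of non-coding genes, with the number of tested genes in parentheses. Filled circles are all libraries, open squares leave out ICH replicate 4. Coding genes sit at 0.03 and pseudogenes at -0.08, against -0.50 for lincRNA genes and -0.91 for sense intronic genes with all libraries. Non-coding genes on the same strand with overlapping exons are not drawn.

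Of 25 tested genes in a list of named long non-coding RNAs, 8 fell and none rose, against 4.26% and 0.203% of all non-coding genes. The median was -0.63 (-0.60 without ICH replicate 4), against -0.43 (-0.39) over all non-coding genes. At an unadjusted p under 0.05, 17 were lower and 1 was higher, against 25.9% and 2.27% of non-coding genes. Meg3, an imprinted RNA transcribed from the maternal chromosome (ENSMUSG00000021268, chromosome 12, 109541001 to 109571726, mm10), had 1647, 1124, 620, 639 and 850 CPM in NYKD replicates 1 to 5, against 2689, 2342, 2397, 4612 and 3931 CPM in ICH replicates 1 to 5. Every NYKD value lay below every ICH value, and ICH replicate 4 was the highest. The log2 fold change was -1.71 ± 0.42 (SE, adjusted p = 0.0409), -1.53 without ICH replicate 4 (adjusted p = 0.0924) and -1.54 without both doubtful libraries (adjusted p = 0.00539). Rian and Mirg, which follow Meg3 on the same strand of the imprinted Dlk1-Dio3 region, fell by 0.84 ± 0.19 (adjusted p = 0.0326) and 1.79 ± 0.38 (adjusted p = 0.0315) on the log2 scale.

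Malat1, a nuclear RNA of splicing speckles (ENSMUSG00000092341, chromosome 19, 5795690 to 5802672), had 350 to 998 CPM in NYKD mice (median 550), against 1019 to 2247 in ICH mice (median 1452). The highest NYKD library and the lowest ICH library nearly touched. Malat1 fell by 1.39 ± 0.37 on the log2 scale (adjusted p = 0.0482, 0.109 without ICH replicate 4 and 0.0177 without both libraries). Snhg11, a small nucleolar RNA host that GENCODE M21 lists as protein coding (ENSMUSG00000044349, chromosome 2, 158375638 to 158386145), had 872, 702, 411, 424 and 470 CPM in NYKD and 1621, 1679, 2195, 2869 and 2121 CPM in ICH, with no overlap. It fell by 1.86 ± 0.40 (adjusted p = 0.0315). Ftx, a neighbour of the X-inactivation centre RNA, fell by 1.82 ± 0.36 (adjusted p = 0.0315), and Gas5, a host of small nucleolar RNAs, by 0.60 ± 0.15 (adjusted p = 0.0429). The host of miR-124, Mir124a-1hg, averaged 37.2 CPM in NYKD and 127 CPM in ICH mice, and fell by 1.77 ± 0.40 (adjusted p = 0.0341).

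Among microRNA hosts and precursors 20 were tested and 5 fell, against 4.26% of non-coding genes, with 15 lower at an unadjusted p under 0.05, against 25.9%. Besides Mir124a-1hg these were 4 precursor loci, each inside a longer tested gene: Mir5125 in Srrm2, Mir421 in Ftx, Mir1188 in Rian and Mir3072 in Mirg. Poly-A libraries do not measure mature microRNAs, and reads at these loci cannot be told apart from their host transcripts. Mir5125 had 2.31 to 4.84 CPM in NYKD mice and 8.94 to 15.3 CPM in ICH mice, and fell by 1.94 ± 0.42 (adjusted p = 0.0315). Srrm2 itself, the speckle scaffold around Mir5125, did not pass the test (log2 fold change -0.49 ± 0.20, adjusted p = 0.152). The mature sequences, from RefSeq on GRCm38.p6, identify the loci. Capitals mark the seed, bases 2 to 8, and no seed is shared among them.
mmu-miR-5125 (chr17:23823339-23823358, plus strand): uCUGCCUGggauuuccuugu
mmu-miR-421-5p (chrX:103572966-103572986, minus strand): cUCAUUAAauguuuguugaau
mmu-miR-1188-5p (chr12:109611841-109611861, plus strand): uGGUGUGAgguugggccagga
mmu-miR-3072-5p (chr12:109747893-109747914, plus strand): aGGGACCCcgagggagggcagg

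Splicing factors and their kinases were lower in NYKD in 21 of 22 cases. Of these tested SR proteins, related factors and kinases, 7 fell and none rose (2.27% and 1.19% of all genes), 18 were lower at an unadjusted p under 0.05 (13.3% of all genes), and the median was -0.47 with all libraries and -0.45 without ICH replicate 4. Leaving out any 1 NYKD or ICH library gave medians between -0.54 and -0.42. Without both ICH replicate 4 and sham replicate 5, 10 of the 22 fell, in a fit that called 5.27% of all genes tested in either direction. Srsf11, an SR-related splicing regulator (ENSMUSG00000055436, chromosome 3, 158010473 to 158036639), had 133, 142, 108, 111 and 112 CPM in NYKD, against 258, 209, 310, 317 and 249 CPM in ICH. All NYKD libraries were below all ICH libraries, and Srsf11 fell by 1.15 ± 0.24 on the log2 scale (adjusted p = 0.0315). The SR proteins Srsf2 and Srsf6, both activators of exon inclusion, fell by 0.58 ± 0.12 (adjusted p = 0.0315) and 0.70 ± 0.17 (adjusted p = 0.0396). Luc7l and Luc7l3, relatives of a yeast U1 snRNP component, fell by 0.45 ± 0.12 (adjusted p = 0.0497) and 0.85 ± 0.22 (adjusted p = 0.0462).

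All 4 CLK genes fell, while no DYRK or other related kinase of the same list of 13 did. Clk4 (ENSMUSG00000020385, chromosome 11, 51261730 to 51281766) had 58.6, 67.5, 51.0, 50.2 and 51.0 CPM in NYKD and 105, 113, 144, 121 and 127 CPM in ICH. The groups did not overlap and ICH replicate 4 lay inside the range of the other ICH libraries. The log2 fold change was -1.13 ± 0.20 (adjusted p = 0.0298). It was also -1.13 without ICH replicate 4 (adjusted p = 0.0602) and without both libraries (adjusted p = 0.00130). Clk1 averaged 104 ± 25.6 CPM in NYKD and 218 ± 29.9 CPM in ICH (SD, n = 5 each) and fell by 1.07 ± 0.23 (adjusted p = 0.0316). Clk2 and Clk3 fell by 0.76 ± 0.17 (adjusted p = 0.0326) and 0.68 ± 0.18 (adjusted p = 0.0459). Of 20 hnRNP genes, which encode RNA-packaging and splicing repressor proteins, 2 fell, against 1.88% of all coding genes. These were Hnrnph1, by 0.73 ± 0.15 (adjusted p = 0.0315), and Hnrnph3, by 0.68 ± 0.17 (adjusted p = 0.0396). Rbmx, an X-linked RNA-binding protein of the hnRNP G type, had 41.9 to 53.7 CPM in NYKD and 72.4 to 83.6 CPM in ICH and fell by 0.76 ± 0.13 (adjusted p = 0.0298).

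The lowered coding genes shared annotation features that their choice did not use. Of the 284, 77.1% had at least 1 annotated retained-intron transcript, against 50.7% of the 207 raised genes and 55.3% of all tested coding genes. An annotated transcript subject to nonsense-mediated decay was found for 51.1% of lowered, 20.3% of raised and 26.8% of all tested coding genes. The counts are per gene, so the table does not show which transcript changed. These shares carry no test, since genes are not replicates.

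The same genes set sham replicate 5 apart from the other sham mice. Of the 284 lowered coding genes, 259 (91.2%) were lower in sham replicate 5 than in every other sham library, against 27.4% of all tested coding genes. Of the 126 lowered non-coding genes it was 101 (80.2%), against 47.7% of all tested non-coding genes. Clk4 was at 45.8 CPM in sham replicate 5 and 104 to 121 CPM in the other sham mice, and Snhg11 at 245 CPM against 1401 to 1810 CPM. Relative to the ICH mean, with 0.5 CPM added, the median over lowered coding genes was -1.02 to -0.74 (log2) in NYKD mice, -1.07 in sham replicate 5 and -0.27 to -0.16 in the other sham mice. An animal without haemorrhage or decoction thus had levels of the lowered genes like those of NYKD mice. For the 207 raised coding genes the likeness was smaller: sham replicate 5 was the highest sham library for 82 (39.6%), against 33.9% of all tested coding genes. It lay above all ICH libraries for 109 of the 207, against 4245 of 15087 tested coding genes. The median ratio to the ICH mean over raised genes was 0.39 (log2) in sham replicate 5. It was -0.01 to 0.33 in the other sham mice and 0.60 to 0.78 in NYKD mice. What sets sham replicate 5 apart was not tested.

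**Figure D4:**
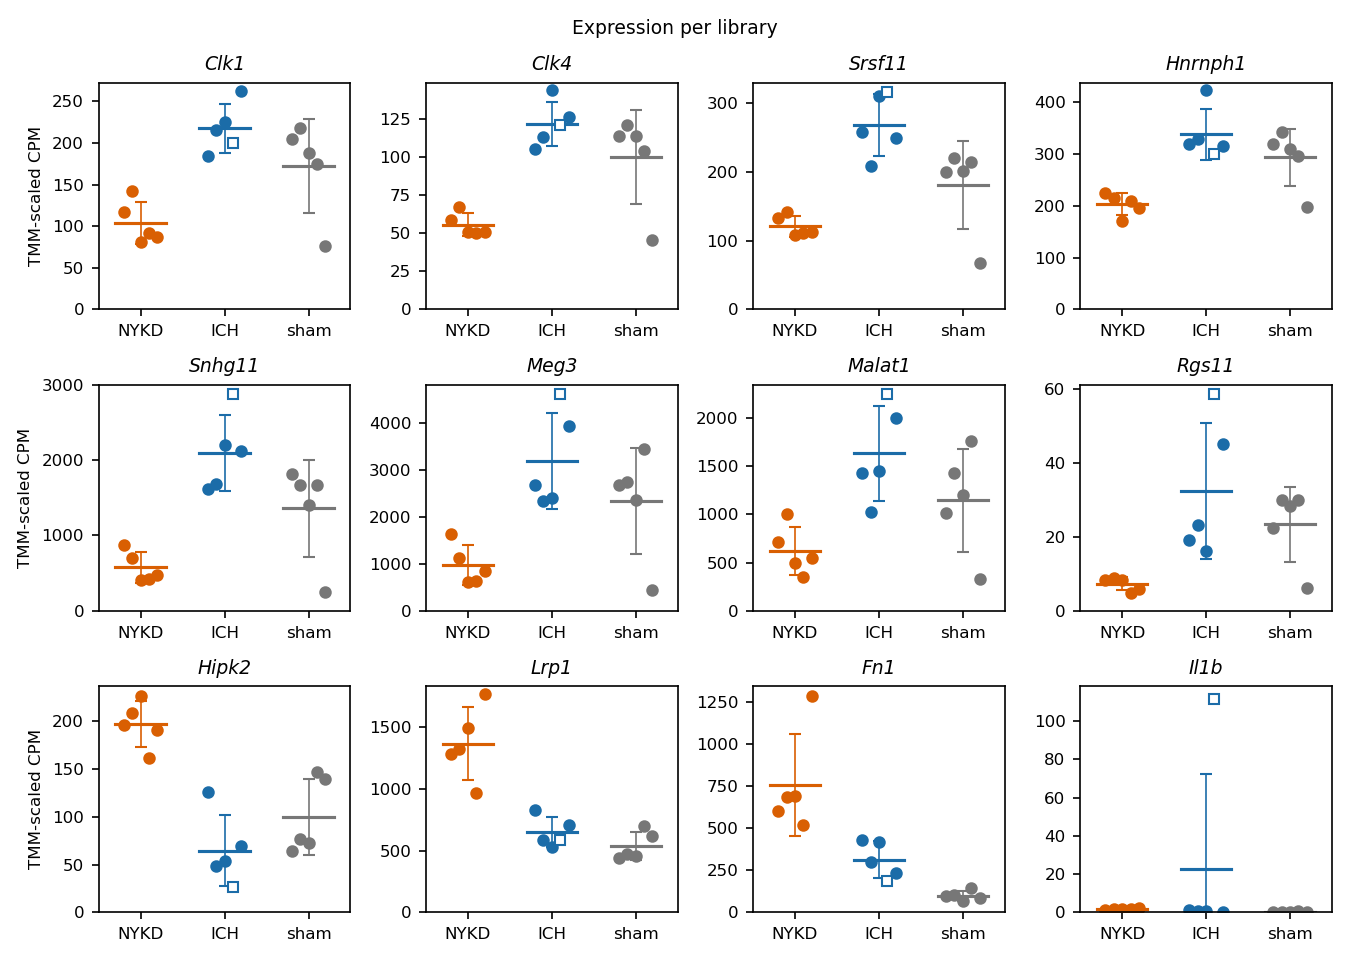
Expression of 12 genes in each library (y axes, TMM-scaled CPM, from 0) in NYKD, ICH and sham mice. Points are libraries, the open square is ICH replicate 4, lines and bars are the mean and SD. Clk1, Clk4, Srsf11, Hnrnph1, Snhg11, Meg3, Malat1 and Rgs11 fell in NYKD and each shows 1 low sham point, sham replicate 5. Hipk2, Lrp1 and Fn1 rose, and Il1b, which did not pass the test, is high in ICH replicate 4 alone.

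Other lowered coding genes came from many families. Zinc finger genes with a Zfp symbol, mostly DNA-binding repressors, had 19 that fell and 4 that rose among 372 tested, against 1.88% and 1.37% of all coding genes, with a median of -0.06. Zfp692 had 8.07 to 15 CPM in NYKD and 21.3 to 34.9 CPM in ICH and fell by 1.33 ± 0.30 (adjusted p = 0.0326). Zfp932, a repressor-type zinc finger, had 14.9 to 22.1 CPM in NYKD and 33.8 to 44.8 CPM in ICH and fell by 1.06 ± 0.18 (adjusted p = 0.0298). Of 61 genes of axonemal dynein and the cilium, 4 fell and none rose, against 1.88% and 1.37% of all coding genes. Those lowered were Cfap20, Cfap69, Cfap74 and Ift88, the last a carrier of intraflagellar transport. The log2 fold changes ran from -1.03 to -0.61, and the list's median was -0.20. The ependymal and choroid plexus list, another site of cilia, had no call and a median of 0.45, with 2.13 to 4.75 log2 CPM in NYKD and 0.74 to 4.79 in ICH mice.

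Regulators of transcription and of p53 fell as single genes. Mtf2, a Polycomb accessory protein (ENSMUSG00000029267, chromosome 5, 108065674 to 108109004), had 36.3, 38.3, 28.0, 36.5 and 31.0 CPM in NYKD, against 59.0, 63.0, 77.8, 77.0 and 66.8 CPM in ICH. It fell by 1.01 ± 0.15 (adjusted p = 0.0298). Ccnt2, a cyclin of the elongation factor P-TEFb, had 66.8 to 86.9 CPM in NYKD and 122 to 152 CPM in ICH and fell by 0.92 ± 0.15 (adjusted p = 0.0298). Mdm4, the inhibitor of p53, had 84.5 to 113 CPM in NYKD and 146 to 201 CPM in ICH and fell by 0.84 ± 0.16 (adjusted p = 0.0298). It was the 1 member of 19 p53 and apoptosis genes that changed, against 3.25% of all coding genes. A count of 1 in so short a list cannot be told from that share. Neither group overlapped the other for any of the 3.

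The largest falls among coding genes with at least 50 counts were partly set by ICH replicate 4. Wnt10b, a Wnt ligand, had 0.117 to 0.531 CPM in NYKD, against 23.0 CPM in ICH replicate 4 and 0.590 to 2.97 CPM in the other ICH mice. Its log2 fold change was -3.88 ± 0.97 (adjusted p = 0.0429) and -1.89 without that library. Muc3a, a membrane mucin, fell by 3.01 ± 0.69 (adjusted p = 0.0349), with -2.41 without that library. Rgs11, a GTPase-activating protein for G proteins, had 8.50, 8.94, 8.46, 4.93 and 5.99 CPM in NYKD, against 19.3, 23.3, 16.2, 58.7 and 45.2 CPM in ICH. ICH replicates 4 and 5 were the high ones, and the groups did not overlap. Rgs11 fell by 2.14 ± 0.42 (adjusted p = 0.0315), with a log2 fold change of -1.80 when ICH replicate 4 was left out. The other genes in this group were Rnf207, Thpo, Tgfbr3l, Tmc4, Syne4, Sycp2, Amy1 and Traip, with log2 fold changes from -2.40 to -1.80. Further single members of lists that fell were Npas4, an activity-induced transcription factor of neurons (-1.26 ± 0.31, adjusted p = 0.0396), the clock gene Per3 (-1.09 ± 0.26, adjusted p = 0.0360) and Kcnt1, a sodium-activated potassium channel (-1.43 ± 0.36, adjusted p = 0.0438). Each was the 1 lowered call of its list, of 18 immediate early, 16 clock and 85 potassium channel genes, against 1.88% of all coding genes. The potassium channel list also had 1 raised call and a median of 0.32.

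Raised coding genes were longer than lowered ones, with median transcript lengths of 5662 and 2981 bases. Hipk2, a nuclear kinase that phosphorylates p53 and other transcription factors (ENSMUSG00000061436, chromosome 6, 38694390 to 38876165), had 196, 209, 227, 162 and 191 CPM in NYKD, against 126, 48.4, 53.4, 26.5 and 69.2 CPM in ICH. The lowest NYKD library was above the highest ICH library, ICH replicate 1. Its log2 fold change was 1.61 ± 0.34 (adjusted p = 0.0315) with all libraries. Leaving out ICH replicate 4 gave 1.42 (adjusted p = 0.0602), and leaving out both libraries 1.41 (adjusted p = 0.0147). Lrp1, the receptor that clears the hemopexin-heme complex and many other ligands (ENSMUSG00000040249, chromosome 10, 127538161 to 127621148), had 1285, 1323, 1495, 966 and 1766 CPM in NYKD and 833, 583, 532, 586 and 709 CPM in ICH. Lrp1 rose by 1.08 ± 0.19 (adjusted p = 0.0298), a value of 1.05 when ICH replicate 4 was left out. Lrp5, a Wnt co-receptor of the same family, rose by 0.79 ± 0.20 (adjusted p = 0.0437). Of 15 LDL receptor family genes these 2 rose, against 1.37% of all coding genes, and the median was 0.34.

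The promoter windows of Hipk2 and Clk4, a raised and a lowered kinase gene, are shown as the 250 bases before and 50 bases after a RefSeq start site (GRCm38.p6). RefSeq gives a second start site for Hipk2, whose window (chr6:38837262-38837561) holds 0 GC boxes and is not printed. Capitals mark GC boxes, GGGCGG on either strand, with overlapping matches joined.
Hipk2 (chr6:38876141-38876440, minus strand): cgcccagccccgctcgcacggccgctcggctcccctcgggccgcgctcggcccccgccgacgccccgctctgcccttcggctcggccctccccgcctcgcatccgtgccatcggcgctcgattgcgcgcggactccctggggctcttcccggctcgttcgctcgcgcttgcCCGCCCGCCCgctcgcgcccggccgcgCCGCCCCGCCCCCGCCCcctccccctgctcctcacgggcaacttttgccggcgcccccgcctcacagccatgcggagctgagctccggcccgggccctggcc
Clk4 (chr11:51262864-51263163, plus strand): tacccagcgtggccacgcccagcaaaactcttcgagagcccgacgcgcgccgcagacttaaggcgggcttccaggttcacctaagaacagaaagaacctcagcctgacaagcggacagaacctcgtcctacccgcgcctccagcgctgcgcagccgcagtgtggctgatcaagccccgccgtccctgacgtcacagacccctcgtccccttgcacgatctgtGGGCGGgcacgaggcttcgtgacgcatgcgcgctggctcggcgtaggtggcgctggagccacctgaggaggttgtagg
A GC box stood in 67.7% of 192 promoters of raised coding genes, 61.1% of 288 promoters of lowered ones, 59.4% of promoters of tested coding genes and 35.7% of all 32851 promoters. The CCAAT box, CCAAT on either strand, stood in 31.2% of raised, 43.1% of lowered and 37.2% of tested promoters. A match describes the letters of this window and shows no binding.

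Single genes of matrix and vessels rose in NYKD. Of 42 collagen chain genes none rose and 1 fell, against 1.37% and 1.88% of all coding genes, with a median of 0.09 (-0.03 without ICH replicate 4). Of 18 matrix proteases and inhibitors 1 rose, and none of 14 endothelial and barrier genes was called. Fn1, fibronectin (ENSMUSG00000026193, chromosome 1, 71585520 to 71653200), had 599, 687, 691, 517 and 1282 CPM in NYKD, against 430, 299, 415, 184 and 234 CPM in ICH, with no overlap and NYKD replicate 5 far above the rest. It rose by 1.27 ± 0.28 (adjusted p = 0.0323). Fn1 is also in the monocyte and wound macrophage list, where it was the 1 raised call among 11 genes. That list had a median log2 fold change of 0.72 (0.88 without ICH replicate 4). Its mean was 5.42 to 6.48 log2 CPM in NYKD and 4.08 to 5.68 in ICH mice. Border-associated macrophage and homeostatic microglia lists had medians of 0.50 and 0.41 (0.59 and 0.18 without that library) and no call. The part of these cells was not tested. Hspg2, the basement membrane proteoglycan perlecan, had 58.7 to 132 CPM in NYKD and 30.0 to 43.0 CPM in ICH and rose by 1.21 ± 0.22 (adjusted p = 0.0298). Timp3, an inhibitor of metalloproteases and the 1 called gene of that list, rose by 0.97 ± 0.24 (adjusted p = 0.0409), and Emilin1, an elastic fibre glycoprotein, by 1.28 ± 0.33 (adjusted p = 0.0451). The semaphorin and VEGF co-receptors Nrp1 and Nrp2 rose by 1.06 ± 0.27 (adjusted p = 0.0421) and 1.07 ± 0.28 (adjusted p = 0.0466). Of 15 angiogenic genes these 2 rose and 8 were higher at an unadjusted p under 0.05 (1.37% and 11.4% of all coding genes), with a median of 0.41 (0.43 without ICH replicate 4). Vash1, an endothelium-derived inhibitor of vessel growth, had 25.4 to 44.2 CPM in NYKD and 12.5 to 19.5 CPM in ICH and rose by 1.01 ± 0.17 (adjusted p = 0.0298). Markers of pericytes, smooth muscle and fibroblasts had a median log2 fold change of 0.59 (0.49 without ICH replicate 4). Their mean was 5.10 to 6.34 log2 CPM in NYKD and 4.10 to 5.65 in ICH, overlapping ranges. Of 13 such markers, 6 were higher at an unadjusted p under 0.05, against 11.4% of all coding genes, and none was called. Their part in the result was not tested.

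Of 21 tested genes of large cytoskeletal proteins, 3 rose and none fell, against 1.37% and 1.88% of all coding genes. At an unadjusted p under 0.05, 13 were higher, against 11.4%. The median was 0.44 (0.41 without ICH replicate 4), and 0.16 with an offset for length and GC content. Map1a, a microtubule-associated protein of neurons, had 1172, 999, 1276, 1087 and 904 CPM in NYKD, against 697, 565, 439, 611 and 763 CPM in ICH, without overlap. It rose by 0.82 ± 0.20 (adjusted p = 0.0399). Ank1, an ankyrin that links spectrin to membranes, rose by 0.79 ± 0.19 (adjusted p = 0.0360) and Utrn, a dystrophin relative, by 0.73 ± 0.19 (adjusted p = 0.0449). The motor genes Myh9 and Myo1d rose by 0.67 ± 0.18 (adjusted p = 0.0488) and 0.64 ± 0.16 (adjusted p = 0.0435). They were 2 of 31 myosin genes, against 1.37% of all coding genes. Of 65 protocadherins, the adhesion proteins that give neurons distinct surfaces, 2 rose (Pcdhb2 and Pcdhgc4), against 1.37% of all coding genes. At an unadjusted p under 0.05, 23 were higher and none lower, against 11.4% and 10.8%, and the median was 0.53 (0.55 without ICH replicate 4). Clustered protocadherins share exons and near-identical stretches, so the split of reads between members is uncertain.

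Signalling and transport genes also rose singly. Rptor, the scaffold of mTORC1, and Irs1, the insulin receptor substrate, rose by 0.50 ± 0.13 (adjusted p = 0.0409) and 1.01 ± 0.26 (adjusted p = 0.0445). They were 2 of 20 insulin and mTOR genes, against 1.37% of all coding genes. Hivep1, a zinc finger transcription factor, had 67.6 to 87.2 CPM in NYKD and 37.7 to 51.2 CPM in ICH and rose by 0.95 ± 0.14 (adjusted p = 0.0298). Solute carriers went both ways, with 9 raised and 8 lowered among 295 tested, against 1.37% and 1.88% of all coding genes. The raised ones included carriers of astrocytes: Slc4a4, a bicarbonate carrier, with 494 to 562 CPM in NYKD and 258 to 438 CPM in ICH (0.67 ± 0.15, adjusted p = 0.0323), and Slc6a11, the GABA carrier GAT3, with 245 to 620 CPM in NYKD and 60.0 to 272 CPM in ICH (1.40 ± 0.33, adjusted p = 0.0360). Homeostatic astrocyte genes had 1 call, Slc4a4, among 12. Their list mean was 8.71 to 8.99 log2 CPM in NYKD and 7.77 to 8.65 in ICH mice. The lowest ICH value came from replicate 4, and without that library the ICH range began at 8.36. The median log2 fold change of the list was 0.39, and 0.25 without ICH replicate 4. At an unadjusted p under 0.05, 5 of the 12 were higher with all libraries and 2 without ICH replicate 4. Raised genes with the largest changes included Ptger3, a prostaglandin E2 receptor (2.03 ± 0.45, adjusted p = 0.0319), and Gucy1a2, a subunit of the nitric oxide receptor guanylate cyclase (1.78 ± 0.42, adjusted p = 0.0375). The others in that group were Nxpe5, Nt5c1a, Nynrin, Ptchd4, Soga1, Dusp4 and Kcnk12, with log2 fold changes from 1.27 to 1.88.

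Direction followed transcript length. Across 5 equal groups of coding genes by length, from 1830 bases or less to 5177 or more, the median log2 fold change was -0.13, -0.03, 0.03, 0.13 and 0.22, and nearly the same without ICH replicate 4 (-0.13, -0.02, 0.04, 0.13 and 0.22). Of the raised coding genes 5 were in the shortest group and 120 in the longest, while the lowered ones numbered 57 in the shortest and 44 in the longest. Median length over all tested coding genes was 3183 bases. In each library, the median log2 CPM of the shortest group was subtracted from that of the longest group. The mean of this difference was 2.07 ± 0.146 in NYKD and 1.73 ± 0.345 in ICH libraries (SD, n = 5 each, two-sided exact permutation p = 0.0714, 0.190 adjusted over 8 measures). With a per-library correction for length and GC content, 123 coding genes rose and 523 fell, and 12 non-coding genes rose and 118 fell. The median of the LDL receptor family was then 0.18, while that of the SR and kinase list was -0.58 and that of non-coding genes -0.33.

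The medians of some inflammatory groups turned with ICH replicate 4, and those of others kept their sign. The median of 10 tested neutrophil genes was -1.08 with that library and 0.79 without it, and none was called in either fit. The other 5 listed neutrophil markers, Ly6g, Retnlg, Camp, Ngp and Ltf, were too low to be tested. At the level of the library, the neutrophil mean was 2.73 ± 0.209 log2 CPM in NYKD and 2.99 ± 1.93 in ICH (SD, n = 5 each; two-sided exact permutation p = 1.00), and 2.14 ± 0.292 in the 4 ICH mice without replicate 4 (exact p = 0.0159, 0.0635 adjusted). Il1b, the cytokine interleukin-1 beta, had 1.06, 1.85, 1.54, 1.73 and 2.47 CPM in NYKD, against 1.09, 0.725, 0.708, 111 and 0.424 CPM in ICH. Only ICH replicate 4 was high. The log2 fold change was -3.71 ± 1.36 (adjusted p = 0.121) and 1.23 without that library (adjusted p = 0.250). The median of 17 cytokine and chemokine genes was -0.97 and 0.07, that of 23 NF-kB and Toll-like receptor genes -0.12 and 0.16, that of 9 endothelial activation genes -0.17 and 0.57, and that of 18 immediate early genes -0.49 and 0.10, with and without the library. Vwf, the platelet-binding von Willebrand factor of endothelium, was not called with all libraries (0.62, adjusted p = 0.181) and passed when ICH replicate 4 and sham replicate 5 were both left out (0.94, adjusted p = 0.0245). That fit called 5.27% of all genes tested. The medians that kept their sign were -0.21 and -0.21 for 18 interferon-stimulated genes, -0.34 and -0.06 for 10 inflammasome genes, 0.14 and 0.33 for 17 complement genes and 0.20 and 0.36 for 15 MHC presentation genes. Lcn2, a siderophore-binding protein of neutrophils and reactive glia, had 142 to 267 CPM in NYKD, against 1343 CPM in ICH replicate 4 and 141 to 263 CPM in the other ICH mice.

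**Figure D5:**
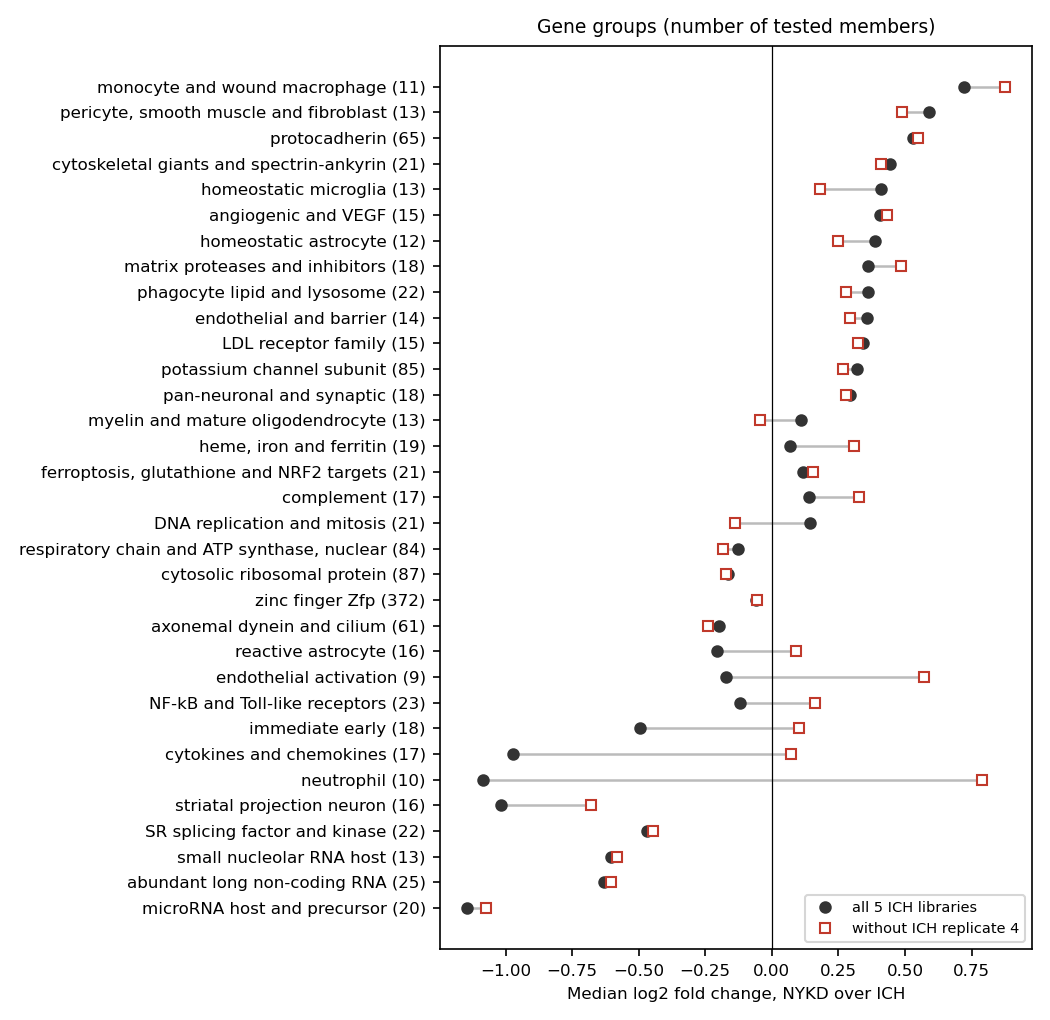
Median log2 fold change, NYKD over ICH (x axis), of 33 gene groups with the number of tested members in parentheses. Filled circles are all libraries and open squares leave out ICH replicate 4. Striatal projection neuron, splicing, long non-coding RNA, small nucleolar RNA host and microRNA host groups keep medians below -0.4 on both. All tested non-coding genes, not drawn here, had medians of -0.43 and -0.39. Neutrophil, cytokine, endothelial activation and immediate early groups are among those that cross 0.

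Groups tied to haemorrhage itself held 1 call or none each. With 3.25% of all coding genes called, such counts in short lists cannot be told from that share. Of 19 heme, iron and ferritin genes only Lrp1 changed, and the median was 0.07 (0.31 without ICH replicate 4). At an unadjusted p under 0.05, 5 of the 19 were higher and 3 lower, against 11.4% and 10.8% of all coding genes. Hmox1, heme oxygenase-1, had 853 to 1493 CPM in NYKD and 522 to 1108 CPM in ICH, overlapping ranges (log2 fold change 0.65 ± 0.56, adjusted p = 0.514). None of 21 ferroptosis, glutathione and NRF2 target genes was called with all libraries, and 4 were higher and none lower at an unadjusted p under 0.05. Gpx4, the lipid hydroperoxidase that blocks ferroptosis, had 179 to 229 CPM in NYKD and 166 to 273 CPM in ICH (log2 fold change -0.11 ± 0.16, adjusted p = 0.705). Slc7a11, the cystine carrier, had 0.66 ± 0.26 (adjusted p = 0.135) with all libraries. It passed with 0.88 ± 0.24 (adjusted p = 0.0439) when ICH replicate 4 and sham replicate 5 were both left out. That fit called 1 of these 21 genes, against 5.27% of all genes tested. No gene was called with all libraries among 13 myelin genes, 18 pan-neuronal genes, 87 cytosolic ribosomal proteins, 84 nuclear respiratory chain genes, 16 reactive astrocyte genes, 17 complement genes or 18 interferon-stimulated genes, against 3.25% of all coding genes. Gfap, Spp1, P2ry12, Mbp and Cldn5, markers of astrocytes, phagocytes, microglia, myelin and endothelium, had log2 fold changes from -0.08 to 0.72 and adjusted p from 0.591 to 0.862. Striatal projection neuron genes had a median of -1.02 (-0.68 without ICH replicate 4) and no call, with all 16 at a negative fold change. Cortical and thalamic neuron genes lay the other way, with 13 of 14 at a positive fold change, a median of 0.46 (0.44 without ICH replicate 4) and no call. Their list mean was 3.95 to 5.49 log2 CPM in NYKD and 3.68 to 4.8 in ICH mice, and the part of the sampled region in these results was not tested. Ppp1r1b, the striatal phosphoprotein DARPP-32, ranged from 41.1 to 372 CPM in NYKD and 69.6 to 1253 CPM in ICH, so the spread among mice was wider than the difference between groups (-1.49 ± 0.79, adjusted p = 0.278).

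The 1 gene called without ICH replicate 4 in the full model was A330074K22Rik, a lincRNA of unknown role on chromosome 8. It had 9.32, 6.17, 9.87, 7.69 and 9.11 CPM in NYKD and 2.17, 3.32, 2.24, 1.48 and 2.67 CPM in ICH, without overlap. The log2 fold change was 1.82 ± 0.25 (adjusted p = 0.0190), and 1.70 without that library (adjusted p = 0.0399). The 5 other raised non-coding genes were also clones or predicted models. The next in rank without ICH replicate 4 were Hivep1, Vash1, Tlr9 and Hspg2 among raised genes and Mtf2, Ccnt2, Rbmx, Zfp932 and the unnamed locus 8430422M14Rik among lowered ones. Tlr9, the endosomal receptor for unmethylated DNA, had 5.51 to 9.48 CPM in NYKD and 2.11 to 6.29 CPM in ICH, where the highest was ICH replicate 4 (1.15 ± 0.29, adjusted p = 0.0421). Its adjusted p without that library was 0.0602.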

How the data were processed

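Whole-gene read counts of 15 poly-A libraries, 1 per mouse, were analysed as the authors deposited them, without normalization. HISAT2 2.0.5, edgeR 3.22.5 and mm10 are named, without roles, per the submitters' processing notes. No label names the counter or annotation release, or says whether counting used strand. Genes were classed with GENCODE M21, and promoters and microRNAs were taken from RefSeq (GRCm38.p6). Genes passing filterByExpr were scaled by TMM and fitted over all 15 libraries with edgeR 4.0.16 (robust quasi-likelihood test, R 4.3.3), the contrast being NYKD minus ICH, with Benjamini-Hochberg adjustment over all genes tested and a threshold of 0.05. SEs of log2 fold changes were taken from the fold change and its F statistic and are approximate. CPM are TMM-scaled. The script was tested on simulated counts. Library measures were compared by exact permutation. Counts limit precision for low genes, and unannotated genes held 0.013% of counts.

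The replicate numbers did not pair the libraries, as deviations of same-numbered libraries correlated negatively. Replicates were separate mice. Named genes were the largest changes without overlap between groups (12 coding and 6 non-coding each way, mean of at least 50 counts), called members of gene lists with up to 3 of smallest p, the 5 each way of smallest p without ICH replicate 4, and 14 set genes; named symbols went before clones and models. The members and lists were chosen with earlier results of these data known, partly after lists of an earlier session on them, so neither is independent support. Alternatives were RLE and total scaling, other filters, DESeq2 1.42.0, limma-voom 3.58.1, fewer libraries, a replicate block, and an offset for length and GC content.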

Additional observations from a re-analysis of the deposited data

Results flagged for a closer look

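Values of 107 named genes and 8 library measures were examined in each group for a library far from the other 4 (Dixon's test), 250 groups of 5 libraries with values in all. A library stood apart in 21 of them, and chance gives about 1 in 20. ICH replicate 4 accounted for 8 and sham replicate 5 for 4, the latter out of far fewer groups examined.

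In ICH replicate 4 the neutrophil mean was 6.42 log2 CPM (others 1.71 to 2.34), Il1b was at 111 CPM (others 0.424 to 1.09), Lcn2 at 1343 CPM (others 141 to 263) and Wnt10b at 23.0 CPM (others 0.590 to 2.97). The same library had 14.2 CPM of Thpo (others 2.96 to 4.79), 5.65 CPM of Syne4 (others 2.62 to 3.45), 743 CPM of Rian (others 622 to 645) and 12.5 CPM of Vash1 (others 18.4 to 19.5). Sham replicate 5 had 22527 genes detected (others 24924 to 25695), 245 CPM of Snhg11 (others 1401 to 1810), 45.8 CPM of Clk4 (others 104 to 121) and 68.0 CPM of Srsf11 (others 199 to 221). All 3 of these genes were lower in NYKD than in ICH mice, and sham replicate 5 lay at or below the NYKD range for each.

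In NYKD mice, replicate 5 had 54.9 CPM of Emilin1 (others 14.9 to 23.1) and 1282 CPM of Fn1 (others 517 to 691), so both matrix genes were highest in the same mouse. NYKD replicate 1 had 4.84 CPM of Mir5125 (others 2.31 to 3.02) and NYKD replicate 2 had 69.3 CPM of Gas5 (others 51.8 to 55.7). Among ICH mice, replicate 1 had 6.39 CPM of Gucy1a2 (others 2.54 to 3.18) and 4.47 CPM of Kcnk12 (others 1.77 to 2.36), replicate 2 had 122 CPM of Ccnt2 (others 144 to 152), and replicate 3 had 48.4 CPM of Rptor (others 66.7 to 72.0) and 424 CPM of Hnrnph1 (others 300 to 330).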

How the results depend on the processing

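The direction of the 625 changed genes was the same under the alternatives that tested them, while the number past the threshold moved widely. The alternatives reuse the counts that chose these genes, so the shared direction is no independent support. Counts of coding raised, coding lowered, non-coding raised and non-coding lowered genes were 207, 284, 6 and 126 with all libraries. They were 256, 253, 7 and 123 with RLE scaling, 110, 330, 5 and 134 with library totals (which moved the median of all genes to -0.09), 191, 179, 4 and 96 without a filter, and 134, 382, 6 and 181 with the 10 NYKD and ICH libraries alone. With the length and GC offset they were 123, 523, 12 and 118. DESeq2 called 1833 genes (786, 658, 21 and 366), limma-voom 387 (176, 146, 6 and 57), and limma-voom with library quality weights 1343 (559, 551, 12 and 219). The raised share was 34.4% with TMM, 41.34% with RLE, 20.14% with library totals and 17.61% with the offset.

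Leaving out 1 library at a time gave 0 to 1508 calls: 0 to 702 coding raised, 0 to 663 coding lowered, 0 to 21 non-coding raised and 0 to 342 non-coding lowered. No gene passed without NYKD replicate 1, 3 or 5 or without ICH replicate 5 (3866, 3607, 3541 and 3499 genes at an unadjusted p under 0.05), 9 passed without NYKD replicate 4 and 1 without ICH replicate 4. Calls numbered 1508 without ICH replicate 1 and 1494 without sham replicate 5. Without the others they numbered 279 (NYKD replicate 2), 363 and 314 (ICH replicates 2 and 3), and 464, 300, 241 and 417 (sham replicates 1 to 4). Chosen after seeing the data, leaving out ICH replicate 4 and sham replicate 5 together gave 961 calls (230, 491, 11 and 227). Also chosen after seeing the data, the count of 1 without ICH replicate 4 was 1 with RLE scaling, 0 with library totals, 129 with the offset and 415 with the 9 NYKD and ICH libraries alone. The causes were not tested.

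With the replicate number as a block, 0 genes were called (lowest adjusted p 0.0712, 3602 at an unadjusted p under 0.05), 0 with the block and the offset (0.0639, 3580) and 0 with the block and without ICH replicate 4 (0.154). Deviations of same-numbered NYKD and ICH libraries correlated at -0.31 to -0.11, and 0 of 5 correlated best with their own number, so the numbers are not taken as pairs.

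Some uncalled values changed sign. Il1b was at 0.56 with quality weights and 1.23 without both libraries, and ran from -4.02 to 1.23 with 1 library left out. Lcn2 was at 0.055 without both libraries and ran from -1.37 to 0.061, and Mbp was at -0.025 and ran from -0.017 to 0.42. Cldn5 was at 0.039 with the offset, 0.042 with block and offset and 0.011 with quality weights, and ran from -0.22 to 0.060. Gpx4 was at 0.029 with the offset and 0.032 with block and offset. Leaving out 1 library, the NYKD minus ICH difference ran from -0.58 to 0.60 for the neutrophil mean, from -0.18 to 0.055 for GC-rich minus GC-poor genes, from 0.24 to 0.48 for long minus short genes, from -1.76 to -0.70 points for the mitochondrial share and from -1.62 to -0.65 points for the 10 most counted genes. The smallest library held 13539203 counts, which limits low genes most.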
